A study of Mus musculus with 4 samples.

Results

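Genes of mouse chromosome 12 were followed in 4 RNA-seq libraries of cultured spermatogonial stem cells (SSCs), from which sperm production is maintained. The set comprised every row of the count table placed first on chromosome 12 with at least 100 reads summed over the libraries. Of the 2474 rows on the chromosome, 539 reached this level, and 17 of them were left out by name, which gave 522 genes, 445 of them annotated as protein coding. In all, 55335 rows were counted, and 14442 reached 100 reads. Members were selected on position and summed count, and the chromosome itself was chosen by its CPM values in WT replicate 2 of these same libraries, so the size of that difference is given as a description, without a test.

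The study compared wild-type (WT) SSCs with SSCs labelled Tex11PM/Y. Tex11 lies on the X chromosome and acts in meiotic crossing over, and what PM stands for is not spelled out in the labels. Cells of both genotypes came from mice of strain C57/BL6*DBA2 at postnatal day 10, were kept in culture with regular passages and were collected on a cell sorter before poly(A) RNA was sequenced. Each genotype had 2 libraries. The Tex11PM/Y columns of the count table share a single name, so they are called library A and library B. Separate cultures or mice are not stated for the libraries, so p-values measure only the spread between these samples, which may be technical. Values of the 4 libraries are given in the order WT replicate 1, WT replicate 2, library A, library B.

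Total counts were between 19047148 and 19804951 per library, and levels are in CPM, the counts scaled to a common library size by TMM. Tex11 held 66.3, 126, 22.6 and 9.30 CPM. The 10 SSC and germ cell markers summed to between 2537 and 3683 CPM in the 4 libraries, and none was at 0. The libraries also held RNA of other cells: 13 fibroblast markers summed to 16244, 4565, 537 and 5807 CPM, 9 macrophage markers to 642, 532, 27.7 and 1274 CPM, and 8 Sertoli cell markers to 13.7, 27.8, 17.8 and 16.2 CPM. WT replicate 2 was neither the highest nor the lowest library for fibroblast or macrophage markers, and it was the highest for Sertoli cell markers, whose part in the results was not tested. In bulk RNA, fewer cells of a type and less RNA per cell cannot be told apart.

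As background, the genes of a chromosome are mostly regulated one by one, through their own promoters and enhancers, and the median over many of them is usually alike between libraries of one cell type. A change in the number of copies of a chromosome is a known way for its genes to shift together, and genes under tight feedback or switched by cell state are known exceptions. DNA copy number was not analysed here, and no cause of the differences below was tested. Chromosome 12 of the mouse carries housekeeping genes of protein folding, the proteasome and transport, and also the immunoglobulin heavy chain locus, which is expressed in B cells.

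Promoters of 4 of these genes are shown because they stand for the patterns described below. Dync1h1 is the most abundant gene of the set and among the steadiest, Kif26a was raised further than most while level in the other libraries, and Elmsan1 and Rnf144a departed from the common shift upward and downward. Each run is the 250 bases before the RefSeq start nearest the gene's 5′ end, from the GRCm38.p6 assembly, read 5′ to 3′ on the gene's strand, and capitals mark CG dinucleotides.
Dync1h1 (chr12:110601145-110601394, plus strand): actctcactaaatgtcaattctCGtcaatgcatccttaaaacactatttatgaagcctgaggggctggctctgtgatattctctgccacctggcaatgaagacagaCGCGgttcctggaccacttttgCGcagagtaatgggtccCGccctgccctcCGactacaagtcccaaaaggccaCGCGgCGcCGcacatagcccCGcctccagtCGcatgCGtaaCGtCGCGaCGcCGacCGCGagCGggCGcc
Kif26a (chr12:112145958-112146207, plus strand): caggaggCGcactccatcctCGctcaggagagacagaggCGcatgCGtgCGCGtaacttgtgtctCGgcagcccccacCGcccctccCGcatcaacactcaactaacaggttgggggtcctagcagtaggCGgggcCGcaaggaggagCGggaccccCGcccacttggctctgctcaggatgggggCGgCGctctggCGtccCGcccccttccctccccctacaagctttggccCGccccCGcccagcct
Elmsan1 (chr12:84218882-84219131, minus strand): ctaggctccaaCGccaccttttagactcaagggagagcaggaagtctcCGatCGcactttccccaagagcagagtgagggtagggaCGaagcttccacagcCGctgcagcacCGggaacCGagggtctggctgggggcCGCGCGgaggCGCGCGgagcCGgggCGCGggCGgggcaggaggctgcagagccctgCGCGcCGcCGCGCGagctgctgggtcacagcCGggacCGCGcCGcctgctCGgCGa
Rnf144a (chr12:26415263-26415512, minus strand): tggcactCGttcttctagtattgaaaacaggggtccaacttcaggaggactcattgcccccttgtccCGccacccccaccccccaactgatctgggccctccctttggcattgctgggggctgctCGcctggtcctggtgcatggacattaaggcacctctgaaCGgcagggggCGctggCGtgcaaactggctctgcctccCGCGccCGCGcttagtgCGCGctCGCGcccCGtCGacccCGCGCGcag

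These stretches hold 22, 19, 29 and 19 CG dinucleotides in the order shown, and all 4 are rich in G and C, from 58.0% to 71.6%. RefSeq lists the Elmsan1 promoter under the symbol Mideas. A promoter was matched by symbol or synonym for 421 of the 522 genes. These include Brf1, which a synonym tied to the promoter of a different gene, Zfp36l1, 32887691 bases away. For 333 of the 421 genes the promoter's start lay within 100 bases of the gene start in the count table. Those 333 promoters held a median of 18 CG dinucleotides, against 6 over all 32851 promoters of the RefSeq table, of which 92.1% held at least 1. The sets are unlike, as the 333 belong to genes of at least 100 counts and the RefSeq table was not filtered by expression. The 8 of the 333 that belong to genes departing from the common shift ranged from 0 to 29, with a median of 6.5. The number of CG letters is a description of these windows only.

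Almost the whole of chromosome 12 was higher in WT replicate 2 than in the other libraries. Per gene, the difference was taken as the log2 CPM of WT replicate 2 minus the mean log2 CPM of the other 3 libraries. Its median over the 522 genes was 0.57, a ratio of 1.48, and the interquartile range was 0.33 to 0.77. Of the 522 genes, 483 (92.5%) had a difference above 0. Over 13903 genes of all other chromosomes the median was -0.01, and 49.1% were above 0. WT replicate 2 was the highest of the 4 libraries for 298 of 522 chromosome 12 genes, or 57.1%, and the lowest for 6; these shares were 11.5% and 15.3% on the other chromosomes. The set took 4.13% of all counts in WT replicate 2 and 2.53%, 2.95% and 2.81% in WT replicate 1 and libraries A and B.

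**Figure D1:**
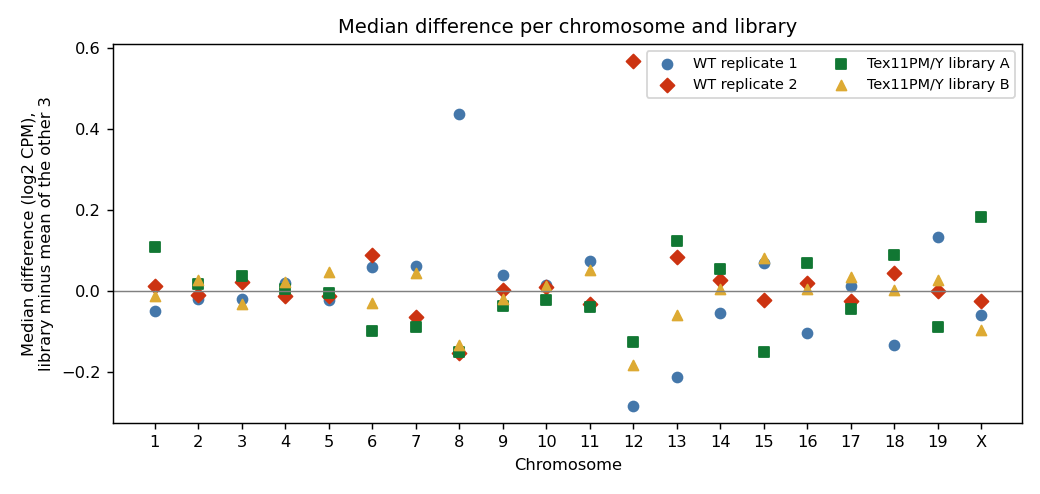
Median difference per chromosome (horizontal axis), for each library against the mean of the other 3, in log2 CPM; each point is the median over the genes of at least 100 counts in 1 library. WT replicate 2 stands at 0.57 on chromosome 12 and WT replicate 1 at 0.44 on chromosome 8, and no other median is farther from 0 than -0.28, that of WT replicate 1 on chromosome 12.

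The difference was similar against each of the other libraries. The median over the 522 genes was 0.61 against WT replicate 1, 0.51 against library A and 0.55 against library B, an SD of 0.05 over the 3. WT replicate 2 was higher for 414, 403 and 479 of the genes, respectively. The other 3 libraries did not differ from each other in this way: the medians were -0.08 for WT replicate 1 against library A, -0.04 for WT replicate 1 against library B and 0.02 for library A against library B. Genes scattered least in the comparison with library B, where the interquartile range of chromosome 12 genes spanned 0.44 log2, against 0.42 for genes of other chromosomes. Within 0.25 log2 of their median lay 290 of the 522 genes, 55.6%, and 55.9% of the genes on other chromosomes.

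Along the chromosome no stretch was free of the shift. In windows of 10 Mb, the median difference ranged from 0.32 over 31 genes between 10 and 20 Mb to 0.65 over 12 genes between 40 and 50 Mb. The first window, with 33 genes, had a median of 0.57, and the last, with 73 genes beyond 110 Mb, had 0.49. In each of the 12 windows at least 83.9% of the genes were above 0. Genes on the plus and minus strands had medians of 0.55 and 0.58.

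**Figure D2:**
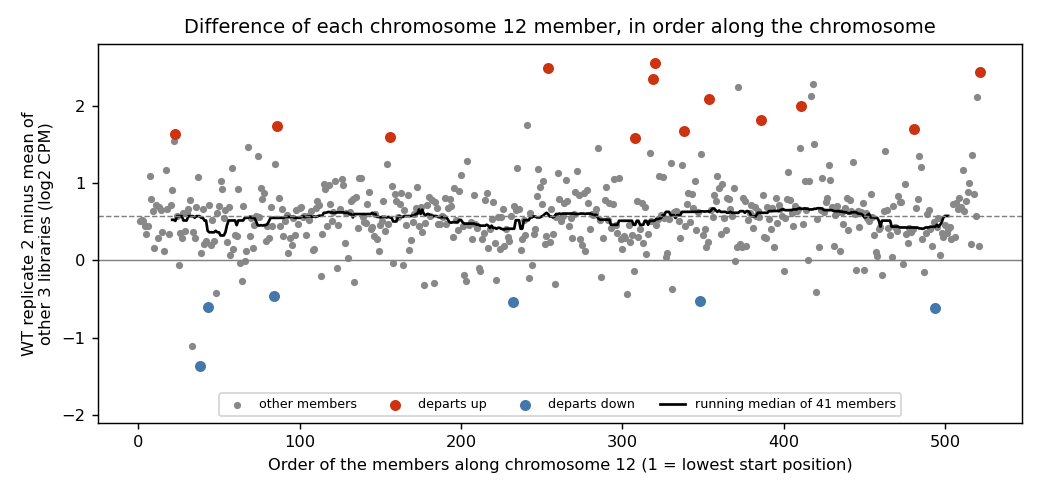
Difference of WT replicate 2 from the mean of the other 3 libraries (log2 CPM) for each of the 522 genes, in their order along chromosome 12; the black line is a running median over 41 genes, the dashed line the overall median of 0.57, and coloured points the 13 genes departing upward and 6 departing downward. The running median stays above 0 along its length, which does not cover the outermost genes at either end.

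The shift was present at every level of expression, with less scatter among abundant genes. With the genes ranked by mean CPM and split into 4 sets of like size, the median difference was 0.62, 0.47, 0.57 and 0.59 from the lowest set to the highest. The interquartile range spanned 0.75 in the lowest set and 0.26 in the highest, which covers genes from 70.2 to 1810 CPM. Split likewise by the SD over the other 3 libraries, the steadiest set had a median of 0.57. The 410 genes that overlap no other gene of at least 100 counts had a median of 0.58. The library kit is not stated to keep strand, so reads of overlapping genes cannot be told apart.

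The steadiest genes, picked for a small SD over the other 3 libraries, show the shift plainly. Dync1h1, the heavy chain of cytoplasmic dynein, lies at 110601452 to 110666945 on the plus strand of chromosome 12 (mm10, as all coordinates of genes here). It held 1594, 2336, 1655 and 1655 CPM. The 3 other libraries lay at a common level, and WT replicate 2 stood above all of them, by 0.52 log2 (counting error 0.01, SD over the other 3 libraries 0.03).

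Rab10, a small GTPase of membrane traffic, held 121, 182, 128 and 130 CPM. Sf3b6, a subunit of the U2 splicing particle, held 54.0, 87.7, 54.4 and 57.3 CPM. Ccnk, a cyclin that activates transcription kinases, held 113, 162, 124 and 114 CPM. In these genes too WT replicate 2 was above the 3 other libraries, which lie close together by the choice of genes. Zc3h14, which binds poly(A) tails, Esyt2, a lipid transfer protein, and Begain had differences of 0.81, 0.64 and 0.74. Rapgef5, an activator of Rap GTPases, had 33.6, 71.7, 36.6 and 37.6 CPM, a difference of 1.00, the largest of the 8 genes with the smallest SD over the other libraries. Over those 8 genes the differences ran from 0.47 to 1.00, with a median of 0.65.

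The 10 most abundant genes had differences from 0.38 to 0.87, with a median of 0.66. Hsp90aa1, the stress-inducible cytosolic HSP90, held 570, 1946, 1792 and 1192 CPM. WT replicate 2 was highest, but library A came near it and WT replicate 1 was far below both. Rps7, a protein of the small ribosomal subunit, held 1311, 1228, 630 and 891 CPM. Here WT replicate 1 was above WT replicate 2, so WT replicate 2 was not the highest although the difference from the mean was 0.44. Laptm4a, a lysosomal membrane protein, had the smallest difference of the 10 at 0.38, and Hbp1, a transcriptional repressor, had 0.53. Papola, the nuclear poly(A) polymerase, had 0.71, Sipa1l1, a Rap GTPase-activating protein, 0.73, Ccdc88c, a Wnt signalling scaffold, 0.69, the RNA helicase gene Ddx24 0.65, and the laminin gene Lamb1 0.68.

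By role, each of the 12 lists drawn up for genes of this chromosome had a median above 0. The lists named 166 genes, of which 152 belonged to the set, and some genes stood on more than 1 list. List medians ran from 0.46 to 0.79, beside 0.57 for the set and -0.01 for genes of other chromosomes. The lists were drawn up with earlier results of these data known. List counts given below stand beside 92.5% of the whole set above 0 and 57.1% highest in WT replicate 2.

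Genes of protein quality control had differences above 0 with 1 exception, where 92.5% of the whole set did. All 8 genes of the chaperone list were highest in WT replicate 2, with a median of 0.73 and differences from 0.47 (Dnaaf2, needed to assemble dynein arms) to 0.87 (Hsp90aa1). Ahsa1, the co-chaperone that stimulates the HSP90 ATPase, held 167, 260, 123 and 173 CPM. Pdia6, a disulfide isomerase of the endoplasmic reticulum, held 288, 364, 152 and 258 CPM. Of 9 proteasome and ubiquitin genes, 8 were highest in WT replicate 2, with a median of 0.64. Psmc1, an ATPase of the proteasome cap, held 223, 343, 171 and 254 CPM, and Psma6, a subunit of its core ring, 144, 197, 118 and 140 CPM. Ubr7, a putative ubiquitin ligase, held 136, 152, 78.4 and 87.0 CPM. The exception, Rnf144a, is described below.

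Genes of translation and RNA processing were mostly above 0, like the set as a whole. Of 11 translation genes 10 were above 0 and 7 were highest in WT replicate 2, with a median of 0.46. Rps29, another small-subunit protein, held 223, 250, 127 and 115 CPM, with both WT libraries above both Tex11PM/Y libraries. Eif5, which triggers GTP hydrolysis on the initiation complex, held 155, 306, 409 and 185 CPM, so library A was above WT replicate 2. Trmt61a, the catalytic subunit of a tRNA methyltransferase, held 17.5, 19.4, 19.3 and 23.8 CPM. It showed no shift: the difference was -0.05, with a counting error of 0.09. Of 16 RNA processing genes 15 were above 0 and 11 were highest in WT replicate 2, with a median of 0.58. The lowest of them was Prpf39, a splicing factor, at -0.32, with 26.7, 31.6, 111 and 20.7 CPM. Its mean over the other libraries rests on library A, and WT replicate 2 was above WT replicate 1 and library B.

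Genes of the nucleus had medians of 0.58 for 19 transcription and chromatin genes and 0.66 for 12 DNA repair and mitosis genes. Setd3, a histidine methyltransferase, held 202, 355, 226 and 269 CPM, and Klf11, a Kruppel-like factor, held 226, 232, 125 and 173 CPM. Rcor1, the corepressor of the LSD1 complex, was the most raised of the first list at 1.42, and Arid4a, a partner of the retinoblastoma protein, the least at -0.13. Smc6, of the SMC5/6 complex that resolves recombination intermediates, held 85.7, 288, 241 and 122 CPM, a difference of 1.08. The mitotic kinase gene Nek9 held 172, 203, 112 and 151 CPM, and Cdca4 held 106, 175, 116 and 137 CPM. All 12 DNA repair and mitosis genes were above 0, and 8 of them were highest in WT replicate 2.

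Cytoskeleton and traffic, signalling and metabolism had medians of 0.51, 0.57 and 0.46. All 18 signalling genes were above 0, from 0.07 in Jag2, a Notch ligand, to 0.93 in Sos2, an activator of RAS. Ywhaq, a 14-3-3 protein, held 151, 283, 232 and 198 CPM, and Cdc42bpb, a CDC42-binding kinase, 211, 311, 248 and 288 CPM. Among traffic genes Rock2, a kinase that acts on the actin cytoskeleton, held 122, 136, 185 and 66.2 CPM, with library A above WT replicate 2. In metabolism, Lpin1, a phosphatidate phosphatase, held 171, 294, 151 and 219 CPM, Pygl, a glycogen phosphorylase, 175, 209, 119 and 167 CPM, and Dlst, of the oxoglutarate dehydrogenase complex, 140, 188, 118 and 131 CPM. Mthfd1, a folate-cycle enzyme, was the lowest of 17 at -0.22, with 70.3, 48.2, 69.3 and 36.8 CPM. WT replicate 2 lay inside the range of the other libraries.

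**Figure D3:**
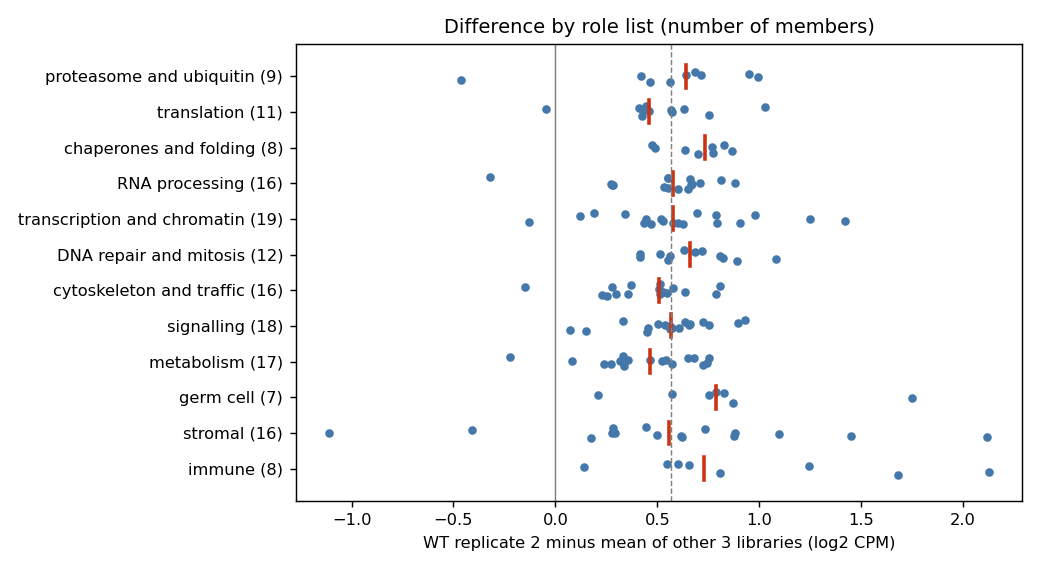
Difference of WT replicate 2 from the mean of the other 3 libraries (log2 CPM, horizontal axis) for the genes of 12 role lists; points are genes, red bars list medians, and the dashed line is the median of 0.57 over all 522 genes. The 12 red bars lie between 0.46 and 0.79, and the stromal and immune lists spread widest.

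Among germ cell, stromal and immune genes, as in the whole set, WT replicate 2 was not always the highest library. It was highest for 4 of 7 germ cell genes and 6 of 8 immune genes, beside 57.1% of the set. The 7 germ cell genes had a median of 0.79. Tdrd9, a helicase of the piRNA pathway, held 9.20, 79.7, 91.2 and 115 CPM. WT replicate 2 was near both Tex11PM/Y libraries, and WT replicate 1 stood far below. Ttll5, a tubulin polyglutamylase, held 44.2, 111, 66.1 and 76.2 CPM. Rpl10l, a retrogene copy of a ribosomal protein gene, held 93.0, 160, 114 and 117 CPM, and its reads may be shared with near-identical copies.

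The 16 stromal genes had a median of 0.56, but only 4 were highest in WT replicate 2. Actn1, an actin cross-linker, held 217, 129, 72.1 and 76.7 CPM. Serpina3n, a secreted protease inhibitor, held 340, 43.7, 6.13 and 92.1 CPM. These genes were highest in WT replicate 1, as were the 13 fibroblast markers in sum, whose part in the result was not tested. Smoc1, a matrix protein, took another order, with 171, 497, 98.3 and 359 CPM. Of 8 immune genes all were above 0, with a median of 0.73. Lgmn, a lysosomal protease, held 191, 184, 58.0 and 179 CPM, lowest in library A as were the macrophage markers, and Traf3 and Siva1 had differences of 0.66 and 0.60.

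Few genes departed from the common shift. A gene was said to depart when its difference lay at least 1 log2 from the median of 0.57 and WT replicate 2, once lowered by that median, fell outside the range of the other 3 libraries. By this rule 19 of 522 genes departed, 13 upward and 6 downward. The same rule, set around their own median, took 2.77% of genes on other chromosomes, 1.75% upward and 1.02% downward. Among the 269 genes of at least 20 CPM 1 departed, and among 7618 such genes elsewhere 42 did. Of the 19 genes, 13 had a mean under 5 CPM.

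Elmsan1, which encodes a subunit of a histone deacetylase complex, was the gene above 20 CPM. It lies at 84149176 to 84218881 on the minus strand, and its promoter is the third shown above. It held 57.9, 137, 29.8 and 55.9 CPM. WT replicate 2 was above the others by 1.58 log2 (counting error 0.04, SD over the other 3 libraries 0.54). Library A was below WT replicate 1 and library B, so it lowers the mean behind this difference. The neighbours of Elmsan1, Dnal1 and Ptgr2, had differences of -0.14 and 0.77.

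Downward, 3 genes of at least 5 CPM departed. Ahnak2, a large scaffold protein, held 23.9, 8.18, 9.50 and 8.70 CPM. Prkch, protein kinase C eta, held 6.28, 6.66, 15.1 and 9.70 CPM, and Rnf144a, a ubiquitin ligase, held 8.69, 4.75, 6.79 and 4.82 CPM. Their differences were -0.61, -0.54 and -0.46, with counting errors of 0.13, 0.14 and 0.17. In each, WT replicate 2 was at the level of at least 1 other library rather than above it. The highest library was WT replicate 1 for Ahnak2 and Rnf144a and library A for Prkch. These differences lean on that library, which raises the mean of the others. Genes on either side kept the shift: Kidins220 and Rsad2 beside Rnf144a had 0.45 and 1.24, and Tmem30b and Snapc1 beside Prkch had 0.58 and 0.70. Over 37 such places beside departing genes the median was 0.58. Rsad2 fills more than 1 of these places, and Syndig1l and Vrtn, which depart themselves, are counted beside each other.

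The other departing genes with common names were low and were picked out after their values were seen. Syndig1l and Vrtn lie next to each other, 25822 bases apart, and had the largest and the fourth largest differences. Syndig1l held 1.96, 9.34, 0.30 and 4.92 CPM, and Vrtn, known for its link to vertebral number, 0.28, 5.60, 1.16 and 2.79 CPM. Gpx2, a glutathione peroxidase of epithelia, held 1.40, 8.48, 0.75 and 2.69 CPM, Macc1 0.11, 3.28, 1.76 and 0.50 CPM, Unc79 0.95, 8.28, 1.61 and 5.02 CPM, and Batf, an AP-1 family factor of lymphocytes, 1.35, 6.82, 1.81 and 3.53 CPM. In all 6 WT replicate 2 was the highest library, which the rule for departing upward requires. Trib2, a pseudokinase, departed downward with 7.46, 1.46, 1.26 and 1.19 CPM, and only WT replicate 1 stood apart there. The level of Macc1 in WT replicate 1 and that of Vrtn there rest on 2 and 5 reads.

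Some abundant genes fell short of the rule but lay well above the shift while level elsewhere, and these too were noted after their values were seen. Kif26a, an atypical kinesin that restrains RET and other receptor signalling, held 143, 331, 131 and 155 CPM, a difference of 1.21 with an SD of 0.12 over the other 3 libraries. Baz1a, the large subunit of the ACF chromatin remodeller, held 18.9, 40.6, 16.1 and 16.2 CPM, a difference of 1.25. Asap2, an ARF GTPase-activating protein, held 27.6, 94.0, 35.9 and 38.8 CPM, a difference of 1.47. Of the 269 genes of at least 20 CPM, 20 had a difference of at least 1, and 7 had one below 0. These counts include the common shift of 0.57, and the like shares on other chromosomes were not taken.

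**Figure D4:**
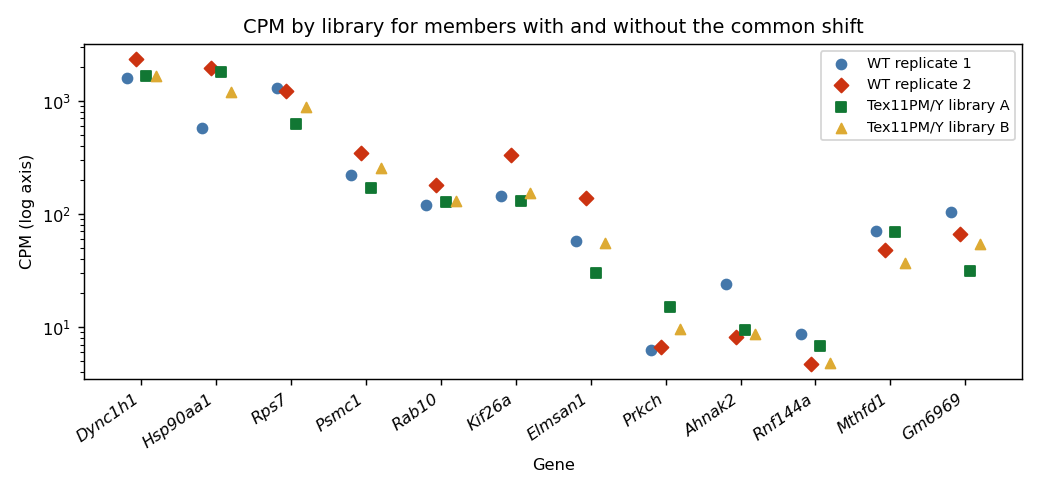
CPM (log axis) of 12 chromosome 12 genes in the 4 libraries; each point is 1 library. WT replicate 2 (red diamonds) is above the others in Dync1h1, Psmc1, Rab10, Kif26a and Elmsan1, and within or below their range in Rps7, Prkch, Ahnak2, Rnf144a, Mthfd1 and Gm6969.

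Processed pseudogenes, which are reverse-transcribed copies of transcripts from genes that can lie on any chromosome, did not carry the shift as a group. The 15 in the set had a median difference of -0.19, 9 of them were below 0 and 3 were highest in WT replicate 2. The 223 processed pseudogenes of other chromosomes had a median of -0.09, and the 445 protein-coding genes of chromosome 12 had 0.57, with 22 below 0. The most abundant, Gm6969, held 104, 67.0, 31.2 and 54.6 CPM, and Rps19-ps6 held 16.8, 5.30, 3.07 and 4.28 CPM; both were highest in WT replicate 1. Reads of such copies may be shared with their parent genes, so their values are uncertain. Gm4294 and Gm10095, which departed downward, are also of this class. The 16 long intergenic RNAs had a median of 0.81, and 4 of them departed, where 2.77% of all genes on other chromosomes did. The share among long intergenic RNAs of other chromosomes was not taken. Departing genes were mostly low, with 13 of all 19 under a mean of 5 CPM.

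Chromosome 8 in WT replicate 1 was the next largest shift of a chromosome. The 786 chromosome 8 genes of at least 100 counts had a median of 0.44 in WT replicate 1 against the other 3 libraries, with 76.2% above 0. The difference between the 2 chromosomes was not tested.

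The comparison of genotypes on chromosome 12 contains the raised WT library. Counts of all genes were fitted with edgeR, and each of the 522 genes entered the test. None passed an adjusted p of 0.05, and none of the 17262 genes tested did (0.0% called), while DESeq2 called 2 genes in all, none on chromosome 12. At an unadjusted p under 0.05, 30 of the 522 genes were lower in Tex11PM/Y and 0 higher, where 1.71% and 0.991% of all genes were. The median log2 fold change was -0.28 over the 522 genes and 0.01 over all genes, and 364 of the 522 were below 0. Both Tex11PM/Y libraries were below both WT libraries for 163 of the genes and above them for 10, shares of 31.2% and 1.92%, where 16.3% and 16.1% of all genes were. The chromosome was chosen for its values in WT replicate 2, so a lean of these counts towards lower in Tex11PM/Y was built in. With 2 libraries against 2, an exact permutation test could not give a two-sided p below 0.333.

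When the median difference of 0.57, itself taken from these libraries, was entered as an offset for chromosome 12 genes of WT replicate 2, the median fold change was 0.04, and 5 genes were lower and 3 higher at an unadjusted p under 0.05 in edgeR, where 1.56% and 1.04% of all genes were. Without WT replicate 2, which leaves WT replicate 1 as the only WT library, assumed to vary like the others, the median was 0.12, with 18 lower and 20 higher, where 4.08% and 2.93% of all genes were. Chromosome 12 was chosen by its values in WT replicate 2, which also set the offset. The gene counts and medians of all these fits are therefore a description, and nothing is read from them.

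**Figure D5:**
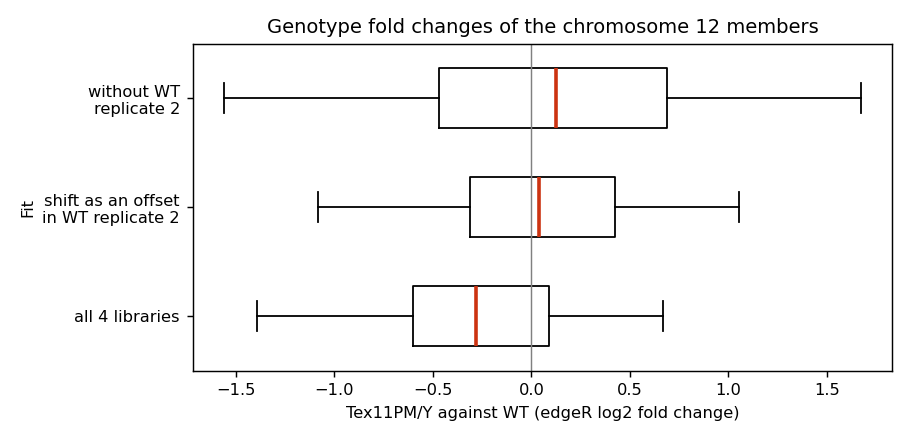
Genotype log2 fold changes (edgeR, Tex11PM/Y against WT) of the 522 genes under 3 fits; boxes span the interquartile range, red bars are medians and whiskers reach the percentiles 5 and 95. The medians are -0.28 with all 4 libraries, 0.04 with the shift as an offset and 0.12 without WT replicate 2.

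Lower in Tex11PM/Y with the smallest p, though not past the threshold, were Bzw2, Actn1, Rps29, Hpcal1 and Lamb1 (edgeR adjusted p = 0.884 for each). Bzw2, a regulator of start codon choice, held 34.1, 34.6, 14.1 and 10.00 CPM, or 34.3 ± 0.34 in WT against 12.1 ± 2.92 (SD, n = 2 each). Its log2 fold change was -1.51 (standard error 0.41), and -1.25 with the offset. The WT replicates were level in this gene, and the groups did not overlap. Lamb1, a chain of the basement membrane protein laminin, held 436, 440, 180 and 266 CPM, a fold change of -0.98 that became -0.72 with the offset. Hpcal1, a neuronal calcium sensor, held 49.8, 24.4, 12.2 and 14.3 CPM. Fold changes of Actn1 and Rps29 were -1.21 and -0.97, and -1.03 and -0.69 with the offset.

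On the higher side stood Prkch, Six4, Tdrd9 and Zfp839, none past the threshold (edgeR adjusted p from 0.884 to 0.894). Six4, a homeobox gene, held 15.3, 85.8, 93.0 and 112 CPM. In it, as in Tdrd9, WT replicate 1 stood apart from the other 3 libraries, and the log2 fold changes of 1.02 and 1.22 became 2.73 and 3.47 without WT replicate 2. Prkch averaged 6.47 ± 0.27 CPM in WT against 12.4 ± 3.84 (SD, n = 2 each), a fold change of 0.94 (standard error 0.52). Zfp839, a zinc-finger gene, had a fold change of 0.32 (standard error 0.35).

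At the count minimum of 100, Samd15 and Ifi27l2a stood just outside the set with 96 and 98 summed counts, and Gm17193 and 9330161L09Rik just inside with 100 each.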

How the data were processed

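Poly(A) RNA of 4 libraries was analysed, 2 per genotype. Build mm10 and the tools DESeq2, fastp, featureCounts, STAR and StringTie appear in the submitters' processing notes, with no role or version. Which gene annotation was counted is not stated. For 55335 genes the authors deposited raw read counts as whole numbers, per the file headers, with FPKM and TPM values of 37653 genes. Symbols came from the FPKM table or a reference name table; gene types came from GENCODE M21.

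Log2 CPM values used TMM and a prior count of 2. Genotypes were compared with edgeR 4.0.16 under R 4.3.3 (TMM, filterByExpr, robust quasi-likelihood F test, genotype as the only term, Benjamini-Hochberg over 17262 genes). The fit was tested on simulated data. Alternatives were DESeq2 1.42.0, limma 3.58.1 on log2(FPKM + 1) and log2(TPM + 1), other scalings and filters, the chromosome 12 offset, and each library left out. The genes, lists and rules were chosen with earlier results of these data known. Counting errors cover sampling of reads only.

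Genes were named by rule: the 10 highest counts, departing genes of at least 5 CPM, the 3 most abundant of each list, the 8 of at least 20 CPM with the smallest SD over the other 3 libraries, and up to 5 smallest p per direction with groups apart and at least 5 CPM in the higher group. Others were chosen after their values were seen, as were list extremes and neighbours. Some genes that this rule names are not reported here.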

Additional observations from a re-analysis of the deposited data

How the results depend on the processing

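The median difference of chromosome 12 kept its direction under every alternative run, from 0.47 to 0.61. It was 0.47 on log2(FPKM + 1), where the cause was not tested, and 0.52 to 0.59 with a reference library left out. The number of departing genes depended on the settings (cause not tested): 1 with at least 1000 summed counts, 74 with at least 10, 3 on FPKM, 9 on TPM, 60 with a deviation of 0.5, 12 among protein-coding genes (chosen after seeing the data), and from 24 to 48 with a reference library left out (35 without library A, 48 without library B). No paired analysis was possible because both Tex11PM/Y columns carry the same replicate number. Genotype calls over all genes numbered 0 in edgeR, 2 with DESeq2 and 50 with no count filter, none of them on chromosome 12. With a library left out they ranged from 0 to 518, the latter without Tex11PM/Y library B, with chromosome 12 genes among them. That fit leaves library A as the only Tex11PM/Y library, so nothing is read from its calls. Its median log2 fold change was -0.34 over chromosome 12 and -0.03 over all genes. On log2(TPM + 1) the median genotype fold change was 0.18 over all genes and -0.04 over chromosome 12. Of 675 recomputed differences of 49 named genes, 12 moved by more than the SD over the other libraries and 5 changed sign; all 120 genotype values of 10 genes kept their sign.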
